A study of Mus musculus with 15 samples.

Results

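The transcripts of the T cell receptor complex and of the cytotoxic granule were followed in podocyte fractions of mouse kidney, as a set of 10 genes: Cd3d, Cd3e, Cd3g, Cd8a, Cd8b1, Lck, Zap70, Gzma, Gzmb and Nkg7. The set was named by function, and all 10 were found by symbol among the 46078 genes of the deposited count table. The fractions came from male C57BL/6J mice, 1 library per mouse, and were obtained by digesting kidney cortex and retaining cells that bound antibodies to nephrin, the slit diaphragm protein of podocytes, on a magnetic column. Young mice were 4 months old and received no injection. Aged mice were 21 months old when randomized to weekly intraperitoneal injections, for 8 weeks at 12 mg/kg, of either the anti-PD-1 antibody RMP1-14 (aPD1ab) or the isotype control antibody 2A3 (IgG2a). Thus age and injection cannot be told apart in either comparison of aged with young mice, whereas aPD1ab and IgG2a mice shared age, dose and schedule as the protocol states it. Sample titles of the aPD1ab mice name 47 days, which was not resolved.

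The labels gave 5 mice per group. The columns of the count table carry numbers that the labels do not hold, so each column was placed in its group by the numbers printed beside the points of the study's principal component plot of podocytes. This gave 5 young, 4 aged IgG2a and 4 aged aPD1ab libraries, and 2 further columns were not used. Replicates were numbered by ascending column number within a group. The libraries held 19912969 to 32717100 counts. Aged IgG2a replicate 1 stood apart from the 3 other IgG2a libraries, with a summed level of 6 proximal tubule markers of 2700 CPM (counts scaled to a common library size) against 589 to 873, and of 8 pan-leukocyte markers of 979 against 2630 to 3080. The tubule sums were 3820 to 6180 CPM in young and 2560 to 8320 in aPD1ab mice, so replicate 1 was the IgG2a library nearest to the other groups in both sums. All 6 tubule markers fell in IgG2a against young mice, where 8.38% of all genes did, by 2.15- to 4.47-fold (edgeR, adjusted p of at most 0.0382). In aPD1ab against IgG2a mice none passed with all libraries, and 5 of the 6 rose without replicate 1, where 17.1% of all genes did. The part of tubule cells in the members' values was not tested. The comparisons of the members with IgG2a mice are therefore given with and without replicate 1. Because replicate 1 was set apart partly by its low leukocyte markers, calls of leukocyte genes gained without it, members included, are not independent of that choice. The 6 podocyte markers were detected in all 13 libraries, at summed levels of 802 to 1280 CPM in young, 451 to 622 in aged IgG2a and 239 to 773 in aged aPD1ab mice, and proximal tubule, endothelial and leukocyte markers were detected beside them.

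The T cell receptor recognizes peptides presented by other cells but has no signaling tail of its own. It signals through the invariant CD3 chains, which Lck, a Src-family kinase held by the CD4 and CD8 co-receptors, phosphorylates, and on which ZAP-70 then docks. Cytotoxic T cells and natural killer (NK) cells kill through granules that hold granzymes and perforin, and PD-1 is an inhibitory receptor that dampens signaling downstream of the T cell receptor and CD28. In a bulk library, fewer cells of a type and less mRNA per cell cannot be told apart, so the levels below describe T cell and cytotoxic mRNA in the fraction and not in podocytes as such.

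The members lie on 7 chromosomes in the GRCm38 annotation. Cd3d (9:44981786-44987339, plus strand), Cd3e (9:44998740-45009627, minus strand) and Cd3g (9:44969572-44980431, minus strand) are neighbors, as are Cd8a (6:71373427-71379173) and Cd8b1 (6:71322788-71337494), both on the plus strand. The others are Lck (4:129548344-129573641, minus strand), Zap70 (1:36761798-36782818, plus strand), Gzma (13:113093825-113100981, minus strand), Gzmb (14:56258838-56262260, minus strand) and Nkg7 (7:43437073-43438249, plus strand). All are protein coding. An exon of Cd3e shares 135 bases with Gm48719 on the opposite strand, and Lck shares 25 exonic bases with Mir8119. Whether counting used strand was not stated, so counts in these stretches are uncertain.

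The promoters of Cd3d, Lck, Gzma and Gzmb are shown because these genes moved in opposite directions in aged aPD1ab mice: against young mice the first pair rose and the granzymes fell. Each line is the 250 bases before a RefSeq start site in GRCm38.p6, read 5′ to 3′ on the strand of the gene, and for Lck the start farthest upstream. Capitals mark the core of ETS motifs (AGGAAG), RUNX motifs (TGTGGT) and T-box motifs (TCACAC), which are binding motifs of factor families used in lymphocytes, on either strand (the other strand appears as the reverse complement).
Cd3d, chr9:44981536-44981785, plus strand: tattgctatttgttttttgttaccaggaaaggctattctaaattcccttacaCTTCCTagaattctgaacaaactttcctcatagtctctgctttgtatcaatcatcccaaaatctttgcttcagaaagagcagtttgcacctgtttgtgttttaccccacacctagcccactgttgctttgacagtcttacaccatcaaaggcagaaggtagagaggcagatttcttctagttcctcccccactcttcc
Lck, chr4:129573642-129573891, minus strand: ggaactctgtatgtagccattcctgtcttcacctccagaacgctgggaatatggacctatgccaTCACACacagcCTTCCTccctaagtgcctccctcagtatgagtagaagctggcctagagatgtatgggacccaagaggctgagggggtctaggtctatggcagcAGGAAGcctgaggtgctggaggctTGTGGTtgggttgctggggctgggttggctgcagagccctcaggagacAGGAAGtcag
Gzma, chr13:113100982-113101231, minus strand: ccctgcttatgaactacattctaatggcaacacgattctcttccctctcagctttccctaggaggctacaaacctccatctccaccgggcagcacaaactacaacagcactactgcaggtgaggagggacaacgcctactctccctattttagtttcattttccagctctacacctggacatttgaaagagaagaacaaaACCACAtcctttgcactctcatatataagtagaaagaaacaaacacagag
Gzmb, chr14:56262335-56262584, minus strand: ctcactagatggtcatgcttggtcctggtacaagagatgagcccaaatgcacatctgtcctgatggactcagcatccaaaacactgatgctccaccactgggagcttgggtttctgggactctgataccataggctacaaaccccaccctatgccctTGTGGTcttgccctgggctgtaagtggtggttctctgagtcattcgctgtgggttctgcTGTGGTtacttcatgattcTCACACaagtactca
The Cd3d window held 1 ETS motif, and the Lck window 3 ETS, 1 RUNX and 1 T-box motif. The Gzma window held 1 RUNX motif, and the Gzmb window 2 RUNX and 1 T-box motif, without an ETS match. Of 32851 mouse promoter windows of this length, 29.5% held the ETS letters, 14.0% the RUNX letters and 12.3% the T-box letters. RefSeq windows were found for 9 of the 10 members, with 12 start sites, of which 7 held an ETS, 5 a RUNX and 4 a T-box match. The member without a window was Cd8b1, which also rose, and the windows of Cd3g and Cd8a held no match.

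All members were rare transcripts in every group. Levels are given as CPM after TMM scaling of the library sizes, in the order of the replicate numbers, and levels of different genes are compared only as CPM per kb of exon. Per kb, the granule genes led in young mice, with Gzmb at 1.29 ± 0.64 and Gzma at 1.01 ± 0.271 (SD, n = 5), followed by Nkg7, Lck and Cd8a at 0.614 to 0.405 and by the other 5 members at 0.0905 to 0.127. In aged mice the order was different. Nkg7 led in both groups, at 1.72 ± 1.49 per kb in IgG2a and 1.33 ± 0.533 per kb in aPD1ab mice (SD, n = 4 each), with Cd8b1 and Lck next to it, and Gzma was the last of 10 in IgG2a and the eighth in aPD1ab mice. Each gene's range over libraries overlapped that of the next gene in the order, in all 3 groups.

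The CD3 chains were low in young mice and varied widely in aged IgG2a mice. Cd3d, the delta chain, was at 0.249, 0.366, 0.198, 0.134 and 0.149 CPM in young mice, at 0.616, 1.43, 0.215 and 1.24 in aged IgG2a mice and at 0.48, 0.57, 1.25 and 0.394 in aged aPD1ab mice. All 4 aPD1ab libraries lay above all young libraries, and 3 of 4 IgG2a libraries did. Cd3e, the epsilon chain, was at 0.497, 0.916, 0.397, 0.369 and 0.373 CPM in young, 0.352, 1.92, 0.539 and 3.32 in IgG2a and 0.761, 0.244, 0.681 and 0.281 in aPD1ab mice. The aPD1ab and young ranges of Cd3e overlapped, and IgG2a replicates 2 and 4 were above every other library. Cd3g, the gamma chain, was at 0.373, 0.122, 0.238, 0 and 0.746 CPM in young, 0.557, 2.13, 0.754 and 1.73 in IgG2a and 0.721, 0.529, 1.19 and 0.956 in aPD1ab mice. Young replicate 4 had no count of Cd3g, and a count of 0 allows up to 3 counts at this depth.

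The 2 chains of the CD8 co-receptor behaved differently. Cd8a, the alpha chain, was at 1.24, 1.5, 0.952, 2.21 and 1.46 CPM in young, 0.938, 3.64, 1.72 and 4.42 in IgG2a and 1.36, 0.896, 1.82 and 1.24 in aPD1ab mice. Young and aPD1ab mice covered nearly the same range, and only IgG2a replicates 2 and 4 exceeded it. Cd8b1, the beta chain, which is carried by the CD8 T cell lineage, was at 0.249, 0.244, 0.0794, 0.134 and 0.149 CPM in young, 0.586, 2.17, 0.539 and 4.84 in IgG2a and 1.44, 0.814, 1.76 and 0.787 in aPD1ab mice. Every aged library of either group was above every young library. Per kb of exon, the level of Cd8b1 divided by that of Cd8a was 0.149 to 0.49 in young, 0.766 to 2.68 in IgG2a and 1.56 to 2.6 in aPD1ab mice, a ratio chosen after its values were seen and given without a test. Some dendritic cells also carry the alpha chain without the beta chain. The 5 markers of dendritic cells did not share one direction in IgG2a against young mice (2 higher and 3 lower), but all 5 were lower in aPD1ab mice than in either other group. Xcr1 was at 5.08 to 17.0 CPM in young, 1.11 to 4.84 in IgG2a and 1.96 to 3.32 in aPD1ab mice. Clec9a, a marker of the same cells, was at 21.4 to 37.9, 9.2 to 33.2 and 7.53 to 27.6 CPM, with ranges that overlapped. The 5 dendritic cell markers, which Itgax dominates, summed to 148 to 255 CPM in young, 317 to 353 in IgG2a apart from replicate 1 at 90.4, and 70.5 to 184 in aPD1ab mice. Of the 5, 1 passed in IgG2a against young mice (Zbtb46, which fell, as 8.38% of all genes did). Without replicate 1 Itgax rose and Zbtb46 and Xcr1 fell, where 22.1% of all genes rose and 23.5% fell. In aPD1ab against young mice the median log2 fold change was -0.91, and 3 fell, Zbtb46 and Xcr1 among them, where 9.97% of all genes did. Against IgG2a mice the median was -0.64, and none passed with all libraries. The part of these cells in the Cd8a level was not tested.

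The 2 proximal kinases, like the CD3 chains, differed from each other in aPD1ab mice. Lck was at 0.995, 1.53, 1.15, 0.772 and 1.83 CPM in young, 1.64, 5.11, 2.48 and 5.6 in IgG2a and 2.64, 1.95, 4.54 and 2.87 in aPD1ab mice. All aPD1ab libraries exceeded the young ones, whereas IgG2a replicate 1 lay within the young range. Zap70 was at 0.788, 0.366, 0.238, 0.0671 and 0.448 CPM in young, 0.176, 1.23, 1.18 and 2.49 in IgG2a and 0.44, 0.366, 0.737 and 0.337 in aPD1ab mice. Here the aPD1ab libraries stayed within the young range, and IgG2a replicates 2 to 4 were above it.

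The granzymes ran the other way. Gzma, a tryptase of the cytotoxic granule, was at 1.08, 1.34, 1.19, 0.671 and 0.821 CPM in young, 0.176, 0.491, 0.323 and 0.415 in IgG2a and 0, 0.244, 0.454 and 0.225 in aPD1ab mice. Every aged library was below every young library, and aPD1ab replicate 1 had no count, which again allows up to 3 counts. Gzmb, which cleaves caspases in target cells, was at 1.53, 2.23, 1.03, 1.21 and 3.28 CPM in young, 0.0586, 1.1, 0.108 and 1.52 in IgG2a and 0.4, 0.489, 0.794 and 0.281 in aPD1ab mice. The aPD1ab libraries all lay below the young ones, while IgG2a libraries fell into a pair with 2 counts each (replicates 1 and 3) and a pair within the young range. Nkg7, a granule membrane protein of cytotoxic lymphocytes, was at 0.373, 1.1, 0.556, 0.0671 and 0.709 CPM in young, 0.498, 3.23, 0.431 and 2.14 in IgG2a and 1.84, 0.814, 1.36 and 0.843 in aPD1ab mice. It did not share the direction of the granzymes, and its groups overlapped.

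**Figure D1:**
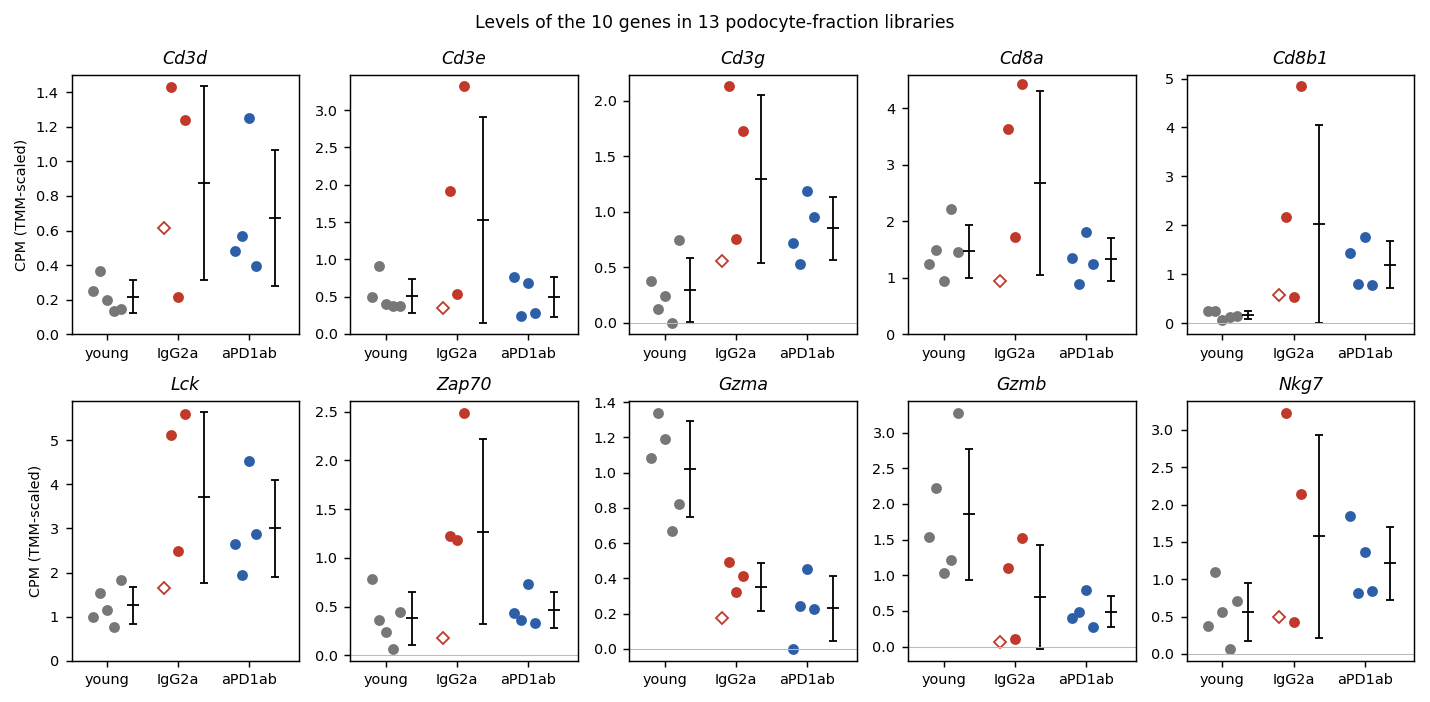
Level of each of the 10 genes in the 13 libraries, in CPM after TMM scaling on linear axes that differ between panels; points are libraries, the open diamond is aged IgG2a replicate 1, and the bar beside each group is the mean ± SD of all its libraries. Cd8b1 lies higher and Gzma lower in all 8 aged libraries than in the 5 young ones, and aged IgG2a replicates 2 and 4 are the 2 highest libraries for Cd3e, Cd3g, Cd8a, Cd8b1 and Lck.

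The first comparison asked how aged IgG2a mice differed from young mice. Cd8b1, Cd3d and Lck rose and Gzma fell in aged mice (edgeR quasi-likelihood test, Benjamini-Hochberg adjustment over all 15953 genes tested, threshold 0.05). Cd8b1 was 11.8-fold higher (log2 fold change 3.56 ± 0.72 SE, adjusted p = 0.0162), Cd3d 4.06-fold higher (2.02 ± 0.54, adjusted p = 0.0335) and Lck 3.08-fold higher (1.62 ± 0.41, adjusted p = 0.0283). Gzma was 2.82-fold lower, at a log2 fold change of -1.50 ± 0.38 (adjusted p = 0.0298). All 10 members were tested, and 4 passed, where 17.4% of all genes did (9.05% higher and 8.38% lower). Of the 6 that did not pass, 5 had positive log2 fold changes of 0.91 (Cd8a) to 2.2 (Cd3g), with adjusted p of 0.0705 to 0.167, and Gzmb was at -1.41 ± 0.77 (adjusted p = 0.216). The groups did not overlap for Cd8b1 and Gzma, against 4.75% of all genes with no overlap and higher aged levels and 9.74% with lower ones.

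Without aged IgG2a replicate 1, the 3 CD3 chains, both CD8 chains and both kinases rose and Gzma fell. Thus 8 of 10 members passed, where 45.6% of 16216 genes did (22.1% higher and 23.5% lower). Among those gained, Cd3e was 3.79-fold, Cd3g 5.48-fold, Cd8a 2.28-fold and Zap70 4.4-fold higher than in young mice, with adjusted p of 0.012, 0.0204, 0.0156 and 0.00924 (edgeR). Cd8b1 was then 14.5-fold and Lck 3.62-fold higher, and the groups did not overlap, with higher aged levels, for Cd3g, Cd8b1, Lck and Zap70 (19.4% of all genes) and, with lower levels, for Gzma (27.4%). Nkg7, at a log2 fold change of 1.83 ± 0.7 (adjusted p = 0.0572), and Gzmb, at -0.99 ± 0.62 (adjusted p = 0.219), did not pass. Cd8b1 alone kept its call whichever of the 9 libraries was left out, with adjusted p of 0.000633 to 0.0454. Cd3d, Lck and Gzma lost theirs without 6, 7 and 6 of the libraries in turn (Cd3d was too low to be tested without young replicate 2), at adjusted p of up to 0.116 (without IgG2a replicate 2), 0.0887 (without IgG2a replicate 2) and 0.0848 (without IgG2a replicate 3).

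The second comparison, aged aPD1ab against aged IgG2a mice, addressed blockade of PD-1. With all 8 libraries no member passed, and at an unadjusted p of 0.05 none did either. Gzma was too low to be tested, and for the other 9 members the log2 fold changes were negative, from -0.33 ± 0.44 (Lck, adjusted p = 0.649) to -1.65 ± 0.75 (Cd3e, adjusted p = 0.189). None of 15530 genes passed in this fit (0.0%), while 28.0% had an unadjusted p under 0.05. The groups overlapped for all 9, against 7.25% of all genes without overlap and higher in aPD1ab mice and 4.73% lower. DESeq2 and a joint edgeR fit of the 3 groups called no member, and limma-voom with sample quality weights called Zap70, which fell. Of all genes, DESeq2 called 1269 higher and 818 lower (25358 fitted), and the joint fit 1861 higher and 1002 lower (16330 tested). With voom, 3240 were higher and 2920 lower of 15530, so 1 call among 9 members does not set them apart.

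Without aged IgG2a replicate 1, Cd3e, Cd8a and Zap70 fell in aPD1ab mice, so 3 of the 9 members tested passed, where 30.4% of 15770 genes did (17.1% higher and 13.2% lower). Cd3e was 4.02-fold lower at a log2 fold change of -2.01 ± 0.65 (adjusted p = 0.0475), Cd8a 2.51-fold lower at -1.33 ± 0.38 (adjusted p = 0.0326) and Zap70 3.55-fold lower at -1.83 ± 0.44 (adjusted p = 0.0181, edgeR). The groups did not overlap for Zap70, as for 18.5% of all genes lower and 24.8% higher in aPD1ab mice. The other 6 members had log2 fold changes of -0.59 (Cd3d and Lck) to -1.09 (Cd8b1), with adjusted p of 0.157 to 0.521. These calls rest on leaving out 1 library, and leaving out any of the other 7 gave none. In the same fit all 8 pan-leukocyte and all 7 macrophage markers also fell, at log2 fold changes of -0.95 to -1.33 and of -1.08 to -1.49, with no overlap of the groups (adjusted p of at most 0.0303 and 0.0369). The library left out had been set apart partly by its low sum of these pan-leukocyte markers. When this fit was scaled to the pan-leukocyte markers as well, an alternative added after seeing the data, no member passed (Cd3e at -0.88 ± 0.58, Cd8a at -0.17 ± 0.4 and Zap70 at -0.68 ± 0.49, adjusted p of 0.187, 0.718 and 0.229), and the median of all genes in that fit was 1.21. There 10928 of 15770 genes rose and only 29 fell, so the loss of these calls is not a result about the members.

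In the third comparison, aged aPD1ab against young mice, Cd3d, Cd8b1 and Lck rose and both granzymes fell. The values were 6.77-fold higher for Cd8b1 (log2 fold change 2.76 ± 0.41, adjusted p = 0.00387), 2.92-fold higher for Cd3d (1.55 ± 0.46, adjusted p = 0.0355) and 2.39-fold higher for Lck (1.26 ± 0.31, adjusted p = 0.0189). Gzma was 4.53-fold lower (-2.18 ± 0.58, adjusted p = 0.0241) and Gzmb 3.86-fold lower (-1.95 ± 0.43, adjusted p = 0.0122, edgeR). Hence 5 of 10 members passed, where 22.4% of 15986 genes did (12.4% higher and 9.97% lower). For these 5 the groups did not overlap, as for 11.3% of all genes higher and 10.6% lower in aPD1ab mice. Cd3e at -0.091 ± 0.46, Cd8a at -0.15 ± 0.3 and Zap70 at 0.29 ± 0.55 were near 0 on the log2 scale, with adjusted p of 0.736 to 0.906, and Cd3g (1.54 ± 0.69, adjusted p = 0.132) and Nkg7 (1.1 ± 0.56, adjusted p = 0.177) did not pass.

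Cd8b1, Lck and Gzmb kept their calls against young mice whichever of the 9 libraries was left out. Cd3d lost its call without young replicate 1, 3, 4 or 5 or aPD1ab replicate 3 (adjusted p of up to 0.0975), and Gzma without young replicate 2 (0.0538) or aPD1ab replicate 4 (0.0617). Without young replicate 5, Cd3g passed (adjusted p = 0.0485). Both comparisons with young mice share the 5 young libraries, and both comparisons with IgG2a mice share those of the control antibody, so likeness between them was not counted as a result.

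**Figure D2:**
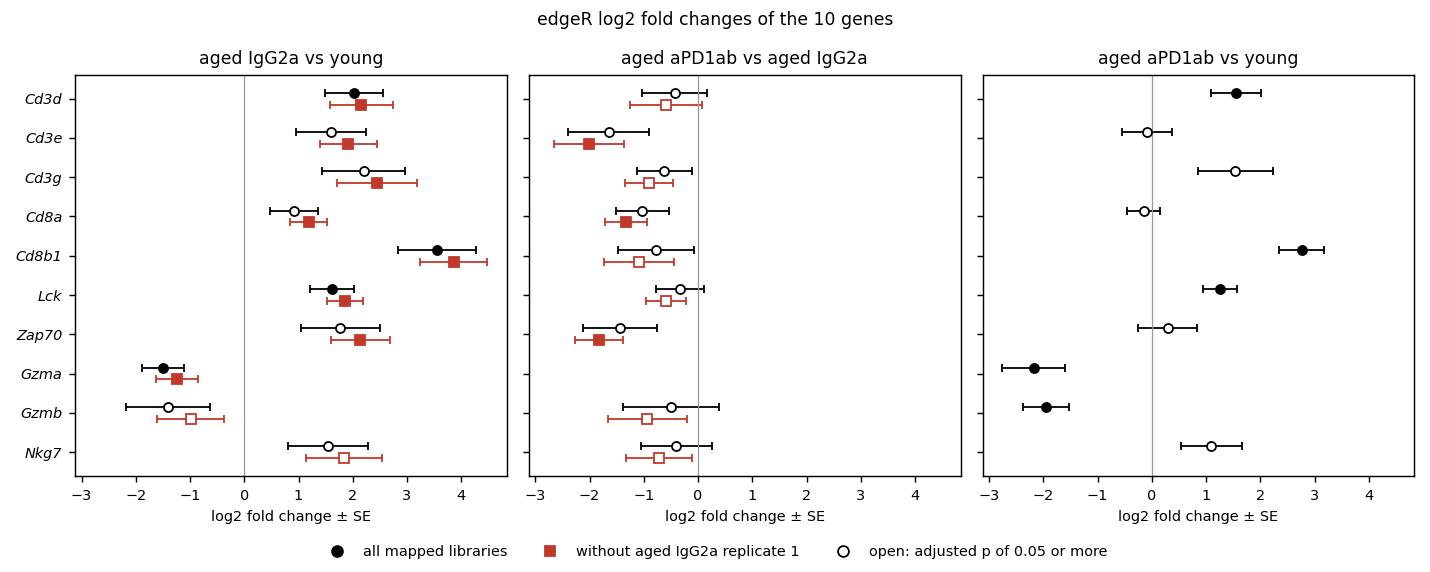
Log2 fold changes of the 10 genes with their standard errors from edgeR in the 3 comparisons; black circles use all mapped libraries, red squares leave out aged IgG2a replicate 1, filled symbols have an adjusted p under 0.05, and Gzma was not tested between the aged groups. Against young mice, T cell receptor genes lie mostly to the right and the granzymes to the left, and between the aged groups all 9 tested genes lie left of 0.

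Granzyme mRNA was low relative to CD3 mRNA in all aged libraries. The sum of Gzma and Gzmb divided by the sum of Cd3d, Cd3e and Cd3g was 2.33, 2.54, 2.67, 3.73 and 3.24 in young mice. It was 0.154, 0.291, 0.286 and 0.308 in IgG2a mice and 0.204, 0.545, 0.4 and 0.31 in aPD1ab mice. The lowest young value was thus above the highest aged value, with IgG2a replicate 1 at the low end. This ratio does not depend on how libraries are scaled, but it was formed after the levels were seen and carries no test.

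Leukocyte mRNA as a whole also differed between groups. All 8 pan-leukocyte markers had positive log2 fold changes in IgG2a against young mice, with a median of 0.95, and 4 of them rose, where 9.05% of all genes did. Without IgG2a replicate 1 all 8 rose, where 22.1% of all genes did. Replicate 1 was set apart partly by its low sum of these markers, so the count without it was not independent of that choice. Ptprc, which encodes CD45, was at 0.63 ± 0.3 with all libraries (adjusted p = 0.161) and at 0.86 ± 0.16 without replicate 1 (adjusted p = 0.00136). In aPD1ab against IgG2a mice Ptprc was at -1.03 ± 0.37 (adjusted p = 0.129), and it fell without replicate 1 (-1.29 ± 0.23, adjusted p = 0.0085). Their summed level was 938 to 1610 CPM in young, 2630 to 3080 in IgG2a apart from replicate 1 at 979, and 858 to 1730 in aPD1ab mice. The part of these cells in the members' values was not tested beyond the scaling given next. The 7 macrophage markers rose too, with sums of 1350 to 2360 CPM in young against 4620 to 6360 in IgG2a mice apart from replicate 1 at 1990, whereas none of the 5 B cell markers passed. Per 1000 CPM of pan-leukocyte markers, Cd8a was at 0.837 to 2.36 in young, 0.655 to 1.44 in IgG2a and 0.875 to 1.05 CPM in aPD1ab mice. Cd8b1 was at 0.0697 to 0.168, 0.205 to 1.57 and 0.636 to 1.02, and Gzma at 0.533 to 1.05, 0.123 to 0.18 and 0 to 0.285 on the same scale. On this scale Cd8b1 remained above and Gzma below the young range in every aged library, and Cd8a did not separate the groups.

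A fit scaled to the pan-leukocyte markers in place of all genes gave fewer calls against young mice, among the members and among all genes. In IgG2a against young mice only Gzma passed, at a log2 fold change of -2.33 ± 0.43 (adjusted p = 0.0392), and Cd8b1 at 2.59 ± 0.58 did not (adjusted p = 0.0784). Of all 15953 genes, only 31 rose and 31 fell there, so the lost calls are not particular to the members. In this fit the median of all genes was at -0.597 for IgG2a against young, 0.607 for aPD1ab against IgG2a and 0.043 for aPD1ab against young mice. Against young mice, aPD1ab mice had a rise of Cd8b1 (2.75 ± 0.47, adjusted p = 0.00404) and a fall of Gzmb (-1.88 ± 0.45, adjusted p = 0.0369). Of all 15986 genes, 113 rose and 118 fell in that comparison. Between the aged groups, Cd3d, Cd3g, Cd8b1, Lck, Gzmb and Nkg7 turned to positive log2 fold changes of 0.17 to 0.58, below the median of all genes in that fit. No member passed, and neither did any other of the 15530 genes tested.

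**Figure D3:**
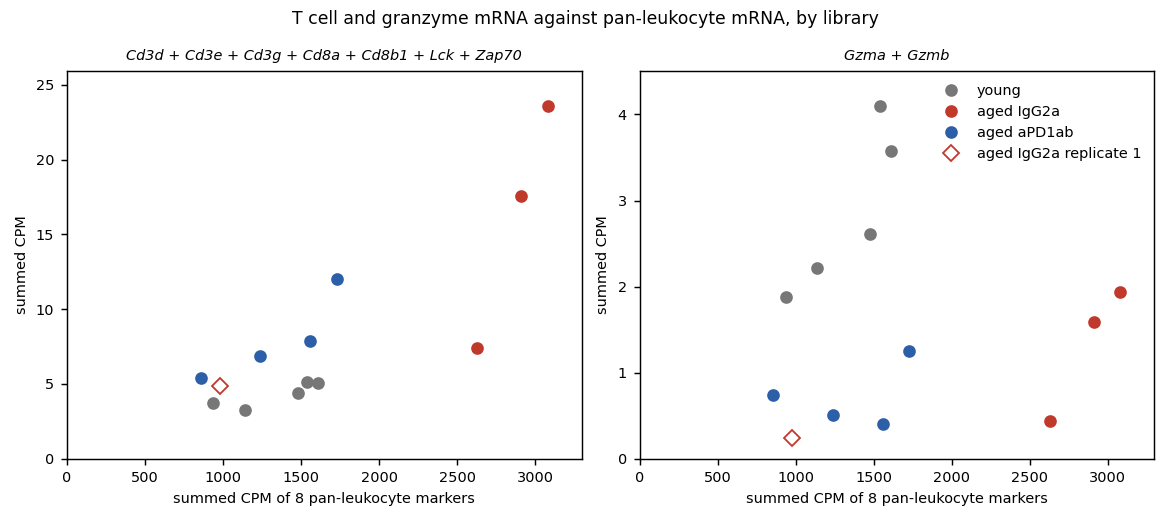
Summed CPM of the 7 T cell receptor, CD8 and kinase genes (left) and of Gzma and Gzmb (right) against the summed CPM of 8 pan-leukocyte markers in each of the 13 libraries, on linear axes from 0; the open diamond is aged IgG2a replicate 1. At like pan-leukocyte levels the aPD1ab libraries lie above the young ones on the left (5.37 to 12.0 against 3.25 to 5.15) and below them on the right (0.4 to 1.25 against 1.88 to 4.1).

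Of 21 further genes of the receptor and its proximal signaling, 14 were high enough to be tested, 13 of these had positive log2 fold changes in IgG2a against young mice (median 0.99, against 0.038 over all genes), and 3 rose, where 9.05% of all genes did. Lat, the adaptor that ZAP-70 phosphorylates, was 4.72-fold higher (adjusted p = 0.0157), Trbc2, a constant region of the receptor beta chain, 2.93-fold higher (adjusted p = 0.0493) and Ptpn22, a phosphatase that restrains Lck, 2.08-fold higher (adjusted p = 0.0406). Trac, the constant region of the alpha chain, was at 1.0 ± 0.44 (log2) and Cd4, which macrophages can also express, at 1.07 ± 0.35, and neither passed (adjusted p of 0.128 and 0.0585). Without IgG2a replicate 1, 10 of the 14 rose, Cd4 among them, where 22.1% of all genes did, and Prkcq, the kinase PKC-theta, fell (-0.63 ± 0.23, adjusted p = 0.041).

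Against IgG2a mice, aPD1ab mice had lower values for all 14 tested genes of this list (median -0.8, against -0.011 over all genes), of which none passed. When IgG2a replicate 1 was left out, 6 of 15 fell, where 13.2% of all genes did. Among the 6 were Cd4 at -1.39 ± 0.3 (adjusted p = 0.0144) and Ptpn22 at -1.18 ± 0.2 (adjusted p = 0.00784). In aPD1ab against young mice the median was 0.14, and only Prkcq passed, which fell (-0.75 ± 0.2, adjusted p = 0.0235). Lat, at 1.37 ± 0.63, and Trbc2, at 0.74 ± 0.43, did not pass there (adjusted p of 0.141 and 0.242).

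Among 17 T cell surface and transcription factor genes, 14 were tested, and 3 rose in IgG2a against young mice, where 9.05% of all genes did. The 3 were Cd28, the co-stimulatory receptor (3.58-fold, adjusted p = 0.0202), Il7r, the interleukin-7 receptor (3.42-fold, adjusted p = 0.0418), and Skap1, an adaptor of integrin activation (2.38-fold, adjusted p = 0.0107). Without IgG2a replicate 1, 6 genes rose in IgG2a against young mice, where 22.1% of all genes did. In aPD1ab against IgG2a mice 2 genes of the list then fell and 1 rose, where 13.2% and 17.1% of all genes did. Il7r was 1 of the 2 that fell (-1.73 ± 0.41, adjusted p = 0.0172). The 1 that rose was Bcl11b (1.48 ± 0.46, edgeR adjusted p = 0.0434), named after its values were seen.

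Of 18 other cytotoxic and NK genes, 12 were tested in IgG2a against young mice, and 1 passed with all libraries, where 9.05% of all genes rose. It was Eomes, a T-box factor of cytotoxic and memory T cells and NK cells, which rose 4.95-fold (adjusted p = 0.0151). Without IgG2a replicate 1, 5 of 12 rose, where 22.1% of all genes did. The 5 were Eomes, Gzmm (granzyme M, 3.47-fold, adjusted p = 0.0107), Ccl5 (2.62-fold, adjusted p = 0.00136), Cst7 (5.09-fold, adjusted p = 0.0253) and Ctsw (4.36-fold, adjusted p = 0.00553). In aPD1ab against IgG2a mice none of 10 passed with all libraries, and without replicate 1 4 of 11 fell, where 13.2% of all genes did. The 4 were Gzmm, Klrd1, Klrk1 and Ctsw, lower by 2.83- to 3.6-fold (adjusted p of 0.00777 to 0.0318). The genes named only without replicate 1 were chosen after their values were seen. Prf1, encoding perforin, was at 0.53 ± 0.54 (log2, adjusted p = 0.511). In aPD1ab against young mice, Klrd1, encoding the NK receptor chain CD94, fell (-1.37 ± 0.36, adjusted p = 0.0233), and so did Ncr1, the NK receptor NKp46 (-2.66 ± 0.74, adjusted p = 0.0279). Of all genes, 9.97% fell in that comparison. Ncr1 was at 0.415, 0.427, 0.476, 0.403 and 0.373 CPM in young mice, at 0.0801, 0, 0.227 and 0 in aPD1ab mice, and at 0 in IgG2a replicates 1 to 3 and 0.415 in replicate 4. Counts of Ncr1 were at most 14, and 6 of 8 aged libraries had 3 or fewer. Its change in IgG2a against young mice, at -2.38 ± 0.96, did not pass (adjusted p = 0.104).

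Of the 8 co-inhibitory receptors and their regulators, 6 were tested, and 3 rose in IgG2a against young mice, where 9.05% of all genes did. The 3 were Lag3 (3.6-fold, adjusted p = 0.0136), Ctla4 (3.54-fold, adjusted p = 0.0468) and Havcr2 (1.93-fold, adjusted p = 0.0373). Havcr2 is also known from macrophages and dendritic cells. Pdcd1, which encodes PD-1, the target of the injected antibody, was at 0.0829, 0.55, 0.238, 0.0671 and 0.821 CPM in young, 0.645, 0.981, 1.08 and 0.691 in IgG2a and 0.24, 0.57, 0.454 and 0.618 in aPD1ab mice. All aPD1ab libraries were below all IgG2a libraries, as for 4.73% of all genes. The difference did not pass (-0.84 ± 0.4, adjusted p = 0.202), nor did IgG2a against young mice (1.31 ± 0.62, adjusted p = 0.156). Lag3 also rose in aPD1ab against young mice, by 1.9-fold (adjusted p = 0.0327). Without IgG2a replicate 1, where 22.1% of all genes rose, Lag3 (4.04-fold) and Havcr2 (2.24-fold) again rose against young mice. Cd160 was tested and rose (2.56-fold, adjusted p = 0.0367), and Ctla4 no longer passed (adjusted p = 0.0595). In aPD1ab against IgG2a mice without replicate 1, Havcr2 fell (-1.13 ± 0.21, adjusted p = 0.00866), as 13.2% of all genes did. Lag3 (-1.08 ± 0.35, adjusted p = 0.0506) and Pdcd1 (-0.97 ± 0.43, adjusted p = 0.119) did not pass.

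**Figure D4:**
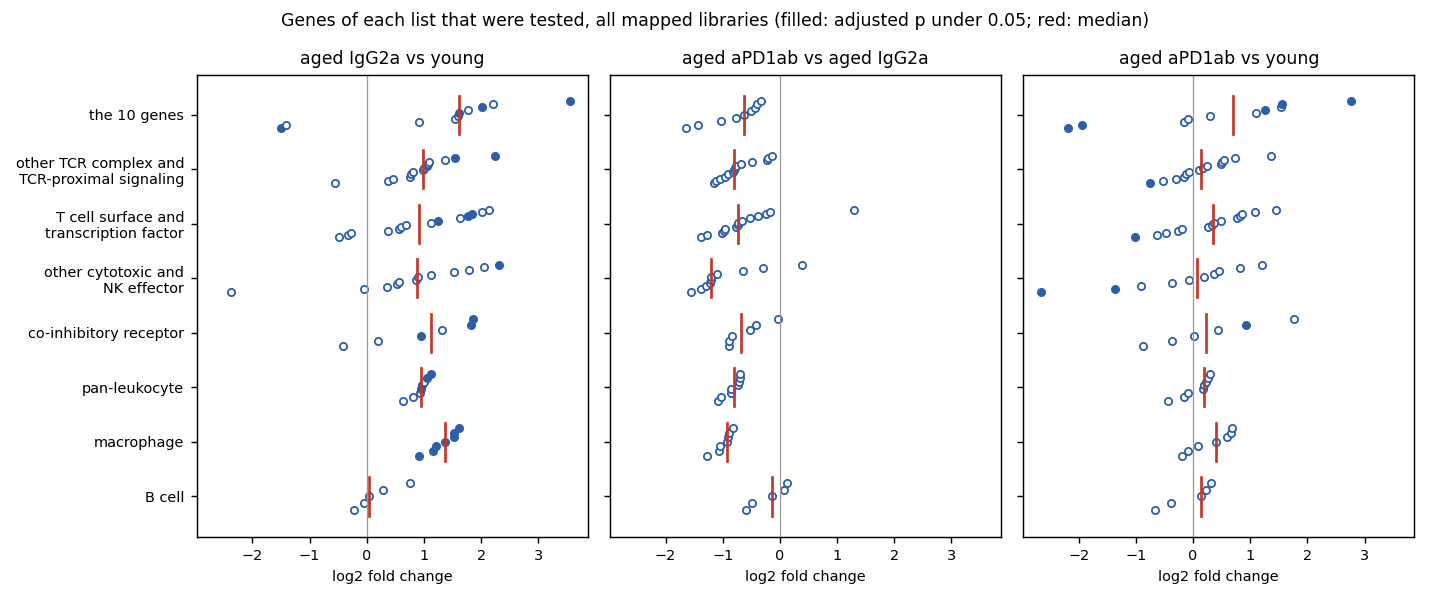
Log2 fold changes from edgeR with all mapped libraries for the genes of each list that were tested, in the 3 comparisons; filled points have an adjusted p under 0.05, and the red bar is the median of the list. The T cell lists, the pan-leukocyte and the macrophage markers share a positive median in IgG2a against young mice (0.88 to 1.61) and a negative one in aPD1ab against IgG2a mice, and the 10 genes spread to both sides in the comparisons with young mice.

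The members differed in how they varied together over the 13 libraries. Pearson's r of the log2 levels was 0.91 between Cd8b1 and Lck, 0.9 between Cd3d and Cd8b1 and between Cd3g and Lck, and 0.86 between Cd3e and Cd8a. For Gzma it was -0.55 with Cd8b1, -0.4 with Cd3g and -0.39 with Lck. The libraries share group, depth and cell makeup, so these values only describe which transcripts ran together. The 10 genes outside the set that were most like the mean of the members over the 13 libraries were Mfsd10 (Pearson's r = 0.94), Nmi, Stk38, Thy1, Tcf7, Alkbh1, Bak1, Dguok, Pisd and Whamm (0.89). By Spearman's rho, 2 of these 10 were again among the first 10, and 7 were without IgG2a replicate 1.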

How the data were processed

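Podocyte fractions were measured by bulk mRNA sequencing (TruSeq RNA libraries, Illumina). Per the labels, the authors aligned reads with HISAT2 and counted them per Ensembl gene with featureCounts against mm10/GRCm38; versions and strand settings are not given in the sources used here. The deposited values are raw counts; no replicate was pooled. In each library, 72.8% to 77.1% of counts from 1 to 10 were even, as were 95 of the 128 nonzero counts of the members, so a count need not be 1 independent fragment, and errors cover the spread between libraries only. The 13 mapped of 15 columns were used; the other 2 were not.

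Symbols were taken from GENCODE M21. Each pair of groups was fitted alone in R 4.3.3 with edgeR 4.0.16 (filterByExpr, TMM, robust quasi-likelihood test); p was adjusted over all genes tested by Benjamini-Hochberg and called at 0.05; the script was tested on simulated data. Alternatives were DESeq2 1.42.0 size factors and test, limma 3.58.1 voom with sample weights, a joint fit, no low-count filter, pan-leukocyte scaling and leaving out each library. The members and all lists were chosen with earlier results of these data known, so no list was tested as a set. Named genes were the members, the called genes of each list up to the 4 with the highest mean CPM, and Ptprc, Pdcd1, Cd4, Trac and Prf1. One gene that this rule names is not reported here.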

Additional observations from a re-analysis of the deposited data

Results flagged for a closer look

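Among 45 sets of values of 1 quantity in 1 group of 4 or 5 libraries, Dixon's criterion marked 2 in which a single library lay far from the rest; chance marks about 1 in 20. Cd3e in young replicate 2 was at 0.916 CPM against 0.369 to 0.497 in the other young libraries. Without it, the log2 fold change of Cd3e in aPD1ab against young mice was 0.24 in place of -0.091, and neither passed. The summed proximal tubule markers of aged IgG2a replicate 1 were at 2700 CPM against 589 to 873 in the other IgG2a libraries. The members' values without that library stand beside each comparison, and the cause of its difference was not tested.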

How the results depend on the processing

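In IgG2a against young mice, 4 members passed. The number was 1 with pan-leukocyte scaling, 2 with counts halved and rounded up (an alternative chosen after seeing the data, like pan-leukocyte scaling without IgG2a replicate 1), and 1 to 8 when 1 library was left out, with 8 reached without IgG2a replicate 1. With halved counts only 6 members were high enough to be tested. Cd8b1 and Cd3d were not among the 6, so that number cannot be set beside the others. The number of all genes was 2780, and it was 62 with pan-leukocyte scaling, 4253 with DESeq2, 7423 with voom, 1353 with an added 2-fold minimum, 12829 with pan-leukocyte scaling without IgG2a replicate 1, and 553 to 7397 with 1 library left out. In that doubly changed fit, 2.07% of calls were higher in aged mice, against 48.5% without IgG2a replicate 1 alone. In aPD1ab against IgG2a mice the number of members was 0, and 1 with voom and 0 to 3 with 1 library left out. The number of all genes was 0, and 2087 with DESeq2, 6160 with voom, 2863 in the joint fit, 10957 with pan-leukocyte scaling without IgG2a replicate 1 and 0 to 4788 with 1 library left out. In aPD1ab against young mice 5 members passed, and 2 did with pan-leukocyte scaling and 3 in the joint fit. The number of all genes was 3578, and 231 with pan-leukocyte scaling, 766 with a 2-fold minimum and 2369 to 3868 with 1 library left out. The causes were not tested.

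Members changed sign in some settings, never past the threshold. With pan-leukocyte scaling, and then with IgG2a replicate 1 also left out, Cd8a in IgG2a against young mice was at -0.13 and -0.074. In aPD1ab against IgG2a mice the same settings gave 0.31 and 0.58 for Cd3d, 0.24 and 0.27 for Cd3g, 0.17 and 0.071 for Cd8b1, 0.53 and 0.56 for Lck, 0.58 and 0.27 for Gzmb, and 0.53 and 0.44 for Nkg7. With 1 library left out in this comparison, Cd8b1 ranged from -1.09 to 0.11 and Gzmb from -0.94 to 0.18 (both positive without IgG2a replicate 4), and Nkg7 from -0.72 to 0.26 (positive without IgG2a replicate 2). Against young mice, Cd3e in aPD1ab mice ranged from -0.41 to 0.24 (positive without young replicate 2, at 0.13 without aPD1ab replicate 2 and at 0.12 without aPD1ab replicate 4) and Cd8a from -0.33 to 0.033 (positive without young replicate 4). No paired analysis was possible because the labels give no replicate numbers shared between groups. Most member counts lay under 100 per library, and groups held 4 or 5 libraries. Differences not well above the standard errors given could therefore have been missed. The group of each column rests on numbers printed in a plot, not on the labels.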
